A study of Danio rerio with 20 samples.

Results

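The genes rx1, rx2, pax6a, pax6b, sox2, lhx2b and six3b encode transcription factors of the eye field and of retinal progenitors. These 7 genes were taken by name from the 32520 genes of a count table that covers 20 RNA-seq libraries. The libraries came from zebrafish retinas at 42 hours post fertilization and fell into 4 sorted cell populations of 5 libraries each. All cells carried the same 3 transgenes, an RFP reporter Tg(ath5:gap-RFP), a CFP reporter Tg(crx:gap-CFP) and, for YFP, Tg(ptf1a:gal4,UAS:gap-YFP), so each population is defined by which of the ath5 (atoh7), crx and ptf1a reporters was on. Photoreceptors were ath5+,crx+,ptf1a-, retinal ganglion cells were ath5+,crx-,ptf1a-, amacrine and horizontal cells were ath5+,crx-,ptf1a+, and progenitors were negative for all 3 reporters. Embryos were raised at 28ºC with a period at 21ºC between 24 and 30 hours, and no population was left without the transgenes for comparison. Each library was made from 500 sorted cells, and 25 retinas were pooled for each replicate. The labels do not say which animals share a pool across the populations, so the p-values measure the spread between these libraries.

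The eye field is the patch of anterior neural plate from which both eyes arise, and it is specified by a network of homeobox and Sox factors that activate and maintain one another. The Rx, Pax6, Six3 and Lhx2 proteins are homeodomain factors, and Sox2 is a member of the SoxB1 group that keeps neural cells in a progenitor state. Most of these factors stay on in dividing retinal progenitors, and several are then kept or restarted in particular neurons, such as Pax6 in amacrine, horizontal and ganglion cells of vertebrates and Rx factors in photoreceptors. Teleosts carry duplicates of many of these genes, and rx1 with rx2 and pax6a with pax6b are such pairs of paralogs.

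Levels are given as counts per 1000000 counts of the library (CPM) after scaling by TMM factors, and a gene is called higher or lower when its adjusted p from edgeR's quasi-likelihood test was under 0.05 among 13838 genes tested. All 7 genes passed the filter on low counts. In the photoreceptor libraries 5 of the 7 genes were lower than in progenitors, namely rx1, pax6a, pax6b, sox2 and six3b, by 4.14-fold to 6.18-fold, while 2.05% of all tested genes were lower there. In the amacrine and horizontal libraries pax6a and pax6b were higher than in progenitors, as were 5.61% of all genes, while rx1 and rx2 were lower, as were 5.51%. In the ganglion cell libraries only sox2 was called, and it was lower, as were 0.889% of all genes. The 3 sorts with a reporter on are called neuron populations after their labels, and whether their cells still divided was not tested. Against the mean of the 3 neuron populations, progenitors were higher in rx1, sox2 and six3b, and 4.56% of all genes were higher. Since these are bulk samples, fewer cells of a type and less RNA per cell cannot be told apart.

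**Figure D1:**
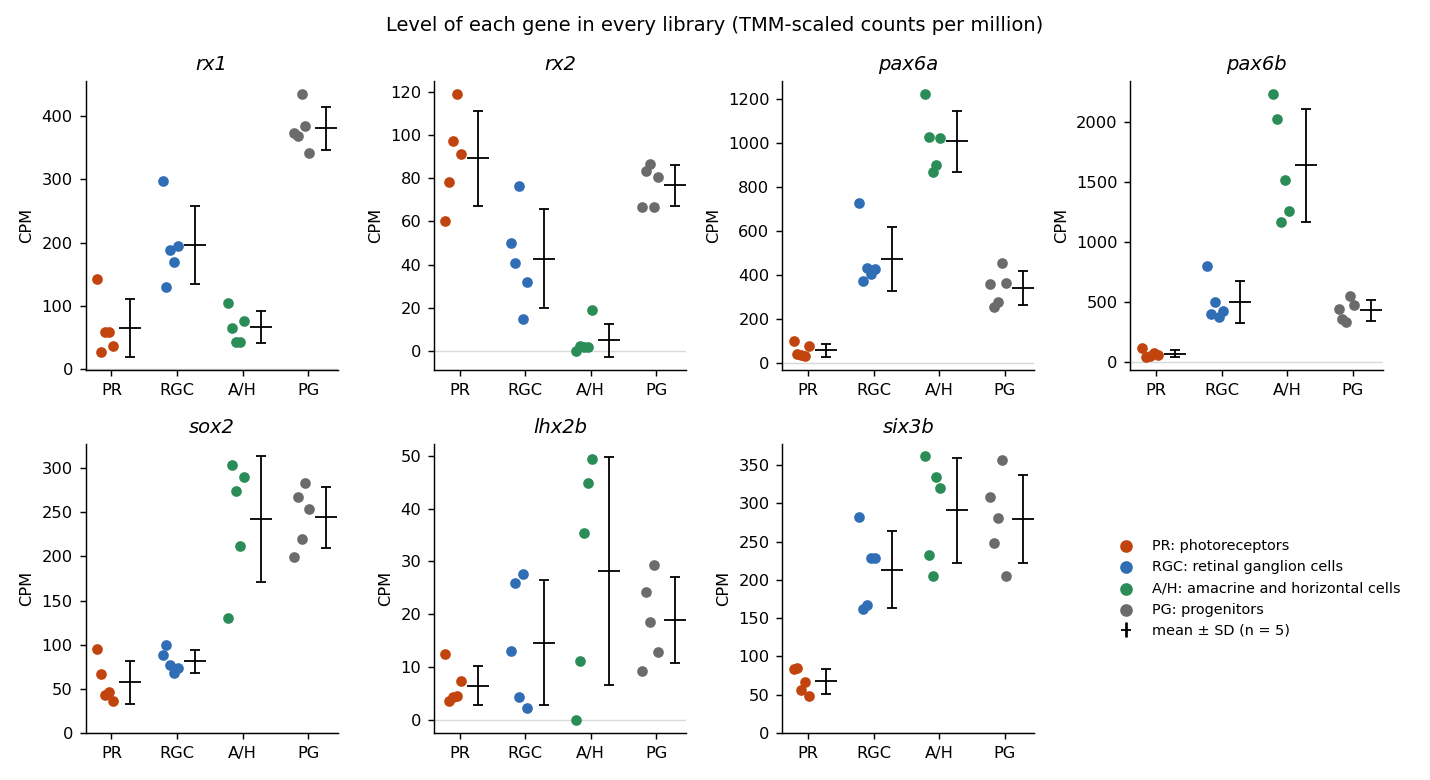
Level of each of the 7 genes in all 20 libraries, in TMM-scaled CPM on linear axes that differ between panels, with colored points for libraries and black bars for the mean ± SD of 5 libraries (PR, photoreceptors; RGC, retinal ganglion cells; A/H, amacrine and horizontal cells; PG, progenitors). All 5 progenitor libraries lay above every other library in rx1, as in 173 of the 13838 genes tested. All 5 amacrine and horizontal libraries lay above every other library in pax6a and pax6b. Over all genes they lay above all progenitor libraries in 587, all photoreceptor libraries in 492 and all ganglion cell libraries in 207.

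Before the single genes, the populations were compared with marker genes of their labels. Total counts ran from 21176600 to 30849559 per library, and from 12531 to 17926 genes were detected. The summed level of 9 photoreceptor markers was 6335 to 8265 CPM in photoreceptors, although gnat2 was at or near 0 throughout. That sum was 1862 to 2465 CPM in ganglion cells and 1319 to 1988 CPM in amacrine and horizontal cells. In progenitors it was only 232 to 349 CPM. The summed level of 10 amacrine and horizontal markers was 2125 to 2536 CPM in their own population and at most 711 CPM elsewhere. These sums include crx and ptf1a, whose reporters defined the sort. Crx averaged 1278 CPM in photoreceptors and 46.1 CPM in progenitors. In the populations sorted as crx-, it averaged 387 CPM (ganglion cells) and 578.6 CPM (amacrine and horizontal cells). Ptf1a averaged 183 CPM in ganglion cells, sorted as ptf1a-, and 200 CPM in amacrine and horizontal cells. That difference was not called (-0.13 ± 0.78 on the log2 scale). The 10 ganglion cell markers went against the labels in part, since their sum was 1416 to 3663 CPM in retinal ganglion cells and 2862 to 5903 CPM in amacrine and horizontal cells. Of 7 progenitor markers, 4 were higher in progenitors than in the neuron mean, while fabp7a, a fatty acid binding protein gene, was lower and raised the summed level in photoreceptors to between 21090 and 42400 CPM against 13200 to 15010 CPM in progenitors. The progenitor libraries also held transcripts of cells outside the neural retina. The sum of 12 mesenchyme markers was 229.9 to 306 CPM there and at most 6.22 CPM in the neuron libraries, and the sum of 5 blood markers reached 2339, 3431 and 6130 CPM in progenitor replicates 1, 2 and 5. Among the neuron libraries the blood sum exceeded 3.2 CPM only in amacrine and horizontal replicate 1, at 2853 CPM, and that library also had the fewest genes detected and the highest mitochondrial share, 15.9%. The sum of 10 pigment markers was 443 CPM in progenitor replicate 2, 84.1 CPM in ganglion cell replicate 2 and 51.9 CPM in progenitor replicate 1, and at most 26.1 CPM in the other libraries. Lens markers summed to at most 2.49 CPM in every library. The part of these other cells in the progenitor values was not tested.

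The Rx factors are among the earliest markers of the eye field, and rx1 (ENSDARG00000071684) lies on chromosome 22 at 4997784 to 5006801, minus strand, on GRCz11, with 4 separate stretches of exon and 4765 exon bases. In progenitors rx1 measured 373, 368, 434, 385 and 341 CPM in replicates 1 to 5. The ganglion cell libraries held 297.5, 129.7, 189, 169.5 and 195 CPM. Every progenitor library was therefore above every ganglion cell library, and the ganglion cell library of replicate 1 stood above its own group. In photoreceptors rx1 measured 143, 27.5, 58.2, 58.5 and 37.3 CPM. The amacrine and horizontal libraries held 104, 64.7, 43.8, 43.9 and 75.8 CPM. Both of these populations lay below every progenitor library, and they overlapped each other. Every progenitor library was thus above every neuron library in rx1, as in 173 of the 13838 genes tested.

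The group means of rx1 were 380.3 ± 34.2 CPM in progenitors, 196 ± 62.2 CPM in retinal ganglion cells, 66.4 ± 25.1 CPM in amacrine and horizontal cells and 64.8 ± 45.5 CPM in photoreceptors (SD, n = 5 each). Photoreceptors were 5.87-fold below progenitors, with a log2 difference of -2.55 ± 0.36 (SE) and an adjusted p of 0.000143 from edgeR. Amacrine and horizontal cells were 5.73-fold below progenitors, with a log2 difference of -2.52 ± 0.36 and an adjusted p of 0.000106 from edgeR. Every ganglion cell library was below every progenitor library, as in 560 of the 13838 genes tested. Retinal ganglion cells had a log2 difference of -0.96 ± 0.35 from progenitors that missed the threshold, with an adjusted p of 0.167 from edgeR. That difference passed when only the 2 groups were fitted, with an adjusted p of 0.0117 from edgeR, and with limma voom. The neighbours at the low end, photoreceptors and amacrine and horizontal cells, did not differ beyond their spread, with a log2 difference of -0.04 ± 0.34.

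Photoreceptors also lay below ganglion cells in rx1, with a log2 difference of -1.6 ± 0.35 and an edgeR adjusted p of 0.0147. Without ganglion cell replicate 1 that difference was -1.4 with an edgeR adjusted p of 0.0508. Rx1 was higher in ganglion cells than in the amacrine and horizontal population by 1.56 ± 0.35 on the log2 scale, with an edgeR adjusted p of 0.0353. This call was lost when any 1 of 6 libraries was left out, which were ganglion cell replicates 1, 3 and 5 and amacrine and horizontal replicates 2, 3 and 4, with estimates from 1.39 to 1.6 and edgeR adjusted p from 0.0573 to 0.102. The photoreceptor library with the most rx1, replicate 1, also had the highest ganglion cell marker sum of its group, 1003 CPM against 124 to 472 CPM, and the part of that in its rx1 level was not tested.

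The second Rx gene, rx2 (ENSDARG00000040321), lies on chromosome 2 at 55833425 to 55861351, minus strand, with 4 exon stretches and 1489 exon bases, and its product is known as a factor of retinal stem cells and photoreceptors in fish. In photoreceptors rx2 measured 60.0, 78.3, 97.2, 119 and 91.1 CPM. In progenitors it measured 66.7, 83.2, 86.6, 66.5 and 80.3 CPM. These 2 groups overlapped almost fully. The ganglion cell values were 49.8, 40.6, 76.5, 14.8 and 31.7 CPM, which spans most of the range between the other groups. The amacrine and horizontal values were 0, 2.18, 2.03, 2.03 and 18.8 CPM, so that 4 of 5 libraries were near or at 0 and replicate 5 stood apart above them, and overlapped the lowest ganglion cell library.

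Mean rx2 was 89.1 ± 21.9 CPM in photoreceptors, 76.7 ± 9.43 CPM in progenitors, 42.7 ± 22.9 CPM in retinal ganglion cells and 5.00 ± 7.76 CPM in the amacrine and horizontal population (SD, n = 5 each). Photoreceptors and progenitors were not called different, with a log2 difference of 0.22 ± 0.75, and neither were ganglion cells and progenitors, at -0.84 ± 0.76. Each SE rests on 1 estimate of spread over all 4 populations, not on the 2 groups compared. The SD of rx2 was 155% of the mean in amacrine and horizontal cells. It was 53.7% in ganglion cells, 24.6% in photoreceptors and 12.3% in progenitors. Rx2 was 15.3-fold below progenitors in amacrine and horizontal cells, a log2 difference of -3.93 ± 0.85 with an edgeR adjusted p of 0.00443. Against photoreceptors it was 17.8-fold lower in the same cells, with an edgeR adjusted p of 0.00418 and a log2 difference of 4.15 ± 0.86 for photoreceptors minus amacrine and horizontal cells. The size of both differences rests on replicate 5, since without it they were -5.64 and 5.85. Both missed the threshold when only the 2 groups compared were fitted, with edgeR adjusted p of 0.0697 and 0.0574.

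In rx2, ganglion cells minus amacrine and horizontal cells gave 3.09 ± 0.82 on the log2 scale with an edgeR adjusted p of 0.086. Without amacrine and horizontal replicate 5 the estimate was 4.78 and the edgeR adjusted p was 0.00166, and without replicate 1 they were 2.77 and 0.0278. With all libraries it passed with DESeq2, at 3.06 with an adjusted p of 0.00279, and with limma voom, at 4.84 with an adjusted p of 0.0172. Progenitors minus the neuron mean gave 1.52 ± 0.57 with an edgeR adjusted p of 0.113, and it passed without replicate 1, at 1.41, or without replicate 5, at 2.1, and with limma voom on all libraries, at 2.2.

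**Figure D2:**
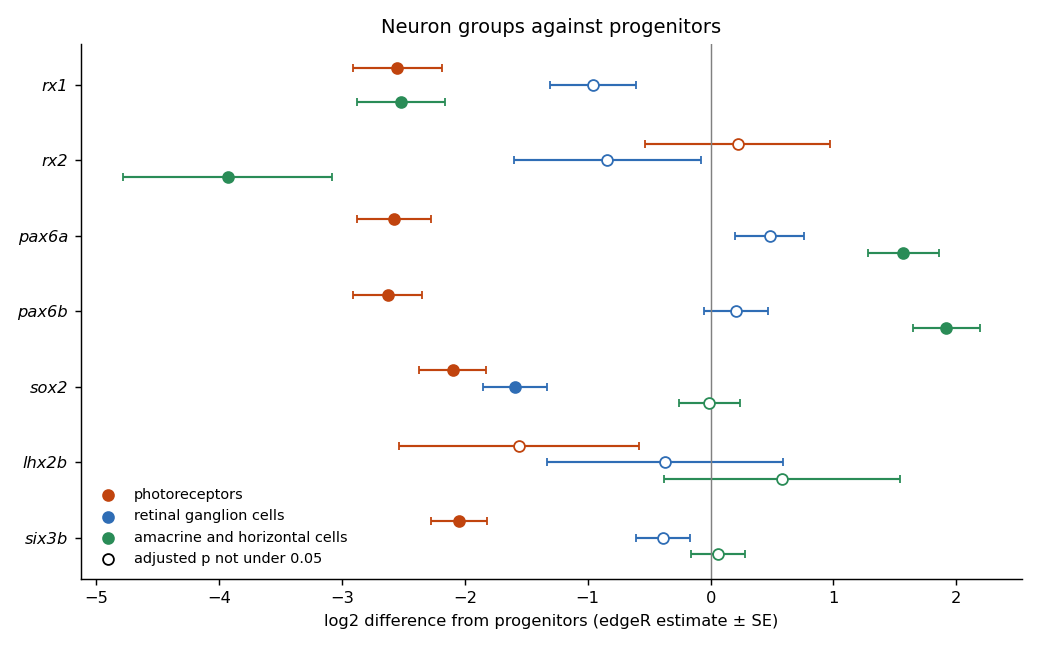
Log2 difference of each neuron population from progenitors for the 7 genes, as the edgeR estimate with its SE over 20 libraries, filled where the adjusted p was under 0.05 and open where it was not. Photoreceptors lay near -2 to -2.6 for 5 genes, while amacrine and horizontal cells lay on opposite sides of 0 for the Rx and Pax6 genes.

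Pax6 proteins hold a paired domain and a homeodomain and are needed for eye formation in many animals, and in the mouse retina Pax6 keeps progenitors multipotent. Pax6a (ENSDARG00000103379) lies on chromosome 25 at 15029041 to 15049781, minus strand, with 16 exon stretches and 3490 exon bases. Pax6a in amacrine and horizontal cells measured 1223, 1028, 868, 899 and 1023 CPM. The ganglion cell libraries measured 726, 372, 432.5, 406 and 429 CPM, with replicate 1 standing apart. Every amacrine and horizontal library was above every other library of the study. Of the 13838 genes tested, such libraries were all above progenitors in 587, above photoreceptors in 492 and above ganglion cells in 207. In progenitors pax6a measured 357, 254, 275, 452 and 361.5 CPM, which overlaps the ganglion cells. In photoreceptors it measured 99.6, 41.6, 35.9, 29.1 and 77.6 CPM, below every other library. Over all genes tested, photoreceptor libraries were all below progenitors in 622, below ganglion cells in 529 and below amacrine and horizontal cells in 492.

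Pax6b (ENSDARG00000045936) lies on chromosome 7 at 15871156 to 15900606, plus strand, with 14 exon stretches and 7064 exon bases. Pax6b in amacrine and horizontal cells measured 2228, 2023, 1163, 1513 and 1253 CPM. Its ganglion cell values were 798, 401.5, 496, 379 and 426 CPM. As with pax6a, the ganglion cell library of replicate 1 stood above its group and the amacrine and horizontal libraries did not overlap any other. In progenitors pax6b measured 445, 358, 331, 546 and 478 CPM. In photoreceptors it measured 115.5, 44.7, 50.8, 74.9 and 63.0 CPM, again the lowest of all libraries. The counts over all genes given with pax6a apply to these separations too.

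Both Pax6 genes thus held the same order of group means. Mean pax6a was 1008 ± 139.8 CPM in amacrine and horizontal cells, 473 ± 144 CPM in retinal ganglion cells, 340.1 ± 78.9 CPM in progenitors and 56.8 ± 30.4 CPM in photoreceptors (SD, n = 5 each). Mean pax6b was 1636 ± 470.5 CPM, 499.9 ± 172 CPM, 431 ± 87.8 CPM and 69.8 ± 28.1 CPM in the same groups. Amacrine and horizontal cells exceeded progenitors by 1.57 ± 0.29 on the log2 scale in pax6a, with an edgeR adjusted p of 0.00115, and by 1.92 ± 0.27 in pax6b, with an edgeR adjusted p of 7.89e-05. Photoreceptors were below progenitors by -2.58 ± 0.30 in pax6a (edgeR adjusted p 1.04e-05) and by -2.63 ± 0.28 in pax6b (edgeR adjusted p 3.63e-06). The neighbours in the middle of the order, ganglion cells and progenitors, were not called different, with log2 differences of 0.48 ± 0.28 in pax6a and 0.21 ± 0.26 in pax6b.

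Photoreceptors were 17.8-fold below amacrine and horizontal cells in pax6a and 23.5-fold below them in pax6b, with edgeR adjusted p of 4.67e-08 and 1.00e-08. Photoreceptors were also below retinal ganglion cells by -3.06 ± 0.30 in pax6a and by -2.84 ± 0.28 in pax6b, with an edgeR adjusted p of 6.90e-06 for each. Retinal ganglion cells were below amacrine and horizontal cells by -1.71 ± 0.27 in pax6b, with an edgeR adjusted p of 0.00265. In pax6a every ganglion cell library was below every amacrine and horizontal library, as in 207 of the 13838 genes tested. The pax6a difference of -1.09 ± 0.28 between these groups missed the threshold with an edgeR adjusted p of 0.0803. Among other settings, it passed with DESeq2, with limma voom, when only the 2 groups were fitted, and without photoreceptor replicate 1, photoreceptor replicate 4 or ganglion cell replicate 1, with estimates from -1.06 to -1.27. In ganglion cell replicate 1, where both Pax6 genes were highest, the ganglion cell marker sum was also highest for that group, 3663 CPM against 1416 to 2278 CPM, and the part of that in the Pax6 levels was not tested.

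Sox2 (ENSDARG00000070913) is a gene with a single exon on chromosome 22 at 37347896 to 37349967, minus strand, with 2072 exon bases, and in the mouse retina its protein marks progenitors, Muller glia and a subset of amacrine cells. It lies within the span of the long noncoding gene sox2ot on the same strand, but the exons of the 2 genes share 0 bases, and sox2ot counts were at most 5.01% of sox2 counts in any library. In progenitors sox2 measured 199, 267, 219.6, 283 and 254 CPM. Amacrine and horizontal cells measured 131, 304, 275, 211.5 and 289.6 CPM. These 2 groups overlapped, and the lowest of their libraries, amacrine and horizontal replicate 1, was still above every remaining library. Of the 13838 genes tested, progenitor libraries were all above ganglion cells in 560 and above photoreceptors in 622. Amacrine and horizontal libraries were all above ganglion cells in 207 and above photoreceptors in 492. Sox2 in ganglion cells measured 88.8, 99.7, 76.8, 67.7 and 73.5 CPM. In photoreceptors it measured 94.6, 67.1, 42.5, 46.1 and 35.6 CPM, which overlaps the ganglion cells.

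Sox2 therefore fell into a high pair of groups and a low pair. The means were 245 ± 34.6 CPM in progenitors, 242 ± 71.6 CPM in amacrine and horizontal cells, 81.3 ± 12.9 CPM in retinal ganglion cells and 57.2 ± 24.0 CPM in photoreceptors (SD, n = 5 each). Within the high pair the log2 difference was -0.01 ± 0.25, and within the low pair it was -0.51 ± 0.26 for photoreceptors minus ganglion cells with an edgeR adjusted p of 0.514. Sox2 was 4.28-fold lower in photoreceptors than in progenitors (log2 difference -2.1 ± 0.27, edgeR adjusted p 3.12e-05) and 3.01-fold lower in retinal ganglion cells (log2 difference -1.59 ± 0.26, edgeR adjusted p 0.0011). Set against amacrine and horizontal cells, sox2 had log2 differences of -2.08 ± 0.27 for photoreceptors and -1.57 ± 0.26 for ganglion cells, with edgeR adjusted p of 3.32e-05 and 0.00356.

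Six3b (ENSDARG00000054879) lies on chromosome 12 at 25600685 to 25603341, plus strand, with 2 exon stretches and 1759 exon bases, and Six3 proteins repress Wnt signalling in the anterior neural plate. In progenitors six3b measured 308, 248, 281, 356.5 and 205 CPM. The amacrine and horizontal libraries measured 362, 233, 204.5, 334 and 319.9 CPM. The values of these 2 groups overlapped over nearly their whole range. Six3b in ganglion cells measured 282, 161, 167, 228 and 229 CPM, in part below both. In photoreceptors it measured 83.2, 84.7, 56.3, 66.0 and 47.6 CPM, below every other library of the study. The counts over all genes for photoreceptors given with pax6a apply here too.

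Mean six3b was 291 ± 68.3 CPM in amacrine and horizontal cells, 279.5 ± 57.6 CPM in progenitors, 213 ± 50.1 CPM in retinal ganglion cells and 67.6 ± 16.3 CPM in photoreceptors (SD, n = 5 each). Among the 3 higher groups no difference was called. The log2 differences were 0.06 ± 0.22 for amacrine and horizontal cells minus progenitors and -0.39 ± 0.22 for ganglion cells minus progenitors. For ganglion minus amacrine and horizontal cells it was -0.45 ± 0.22, with an edgeR p of 0.0547 unadjusted and 0.375 adjusted. Photoreceptors were below all 3 groups, by -2.05 ± 0.23 against progenitors, -1.66 ± 0.22 against ganglion cells and -2.11 ± 0.23 against amacrine and horizontal cells. The edgeR adjusted p of these differences were 7.21e-06, 0.000199 and 5.93e-06.

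Lhx2b (ENSDARG00000031222) lies on chromosome 8 at 3085120 to 3101392, plus strand, with 5 exon stretches and 3677 exon bases, and encodes a LIM homeodomain factor whose mouse counterpart is needed for the optic vesicle to form the optic cup. It was the lowest of the 7 genes per exon length in photoreceptors, retinal ganglion cells and progenitors. Lhx2b in amacrine and horizontal cells measured 0, 11.2, 35.5, 44.9 and 49.4 CPM. In progenitors it measured 9.32, 24.3, 18.6, 29.4 and 12.8 CPM. The library at 0 was replicate 1, the same that had no rx2 count. Lhx2b in ganglion cells measured 13.0, 25.9, 4.34, 27.6 and 2.17 CPM. In photoreceptors it measured 12.5, 3.54, 4.26, 4.45 and 7.34 CPM, and all 4 groups overlapped.

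Mean lhx2b was 28.2 ± 21.6 CPM in amacrine and horizontal cells, 18.9 ± 8.18 CPM in progenitors, 14.6 ± 11.8 CPM in retinal ganglion cells and 6.42 ± 3.70 CPM in photoreceptors (SD, n = 5 each). None of its 7 comparisons passed the threshold. The difference with the lowest p, photoreceptors minus amacrine and horizontal cells, was -2.14 ± 1.0 on the log2 scale with an edgeR adjusted p of 0.203, and it passed without amacrine and horizontal replicate 1, at -2.46 with an edgeR adjusted p of 0.0266. The SE of lhx2b differences ran from 0.76 to 1.0 on the log2 scale, against 0.20 to 0.27 for sox2.

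**Figure D3:**
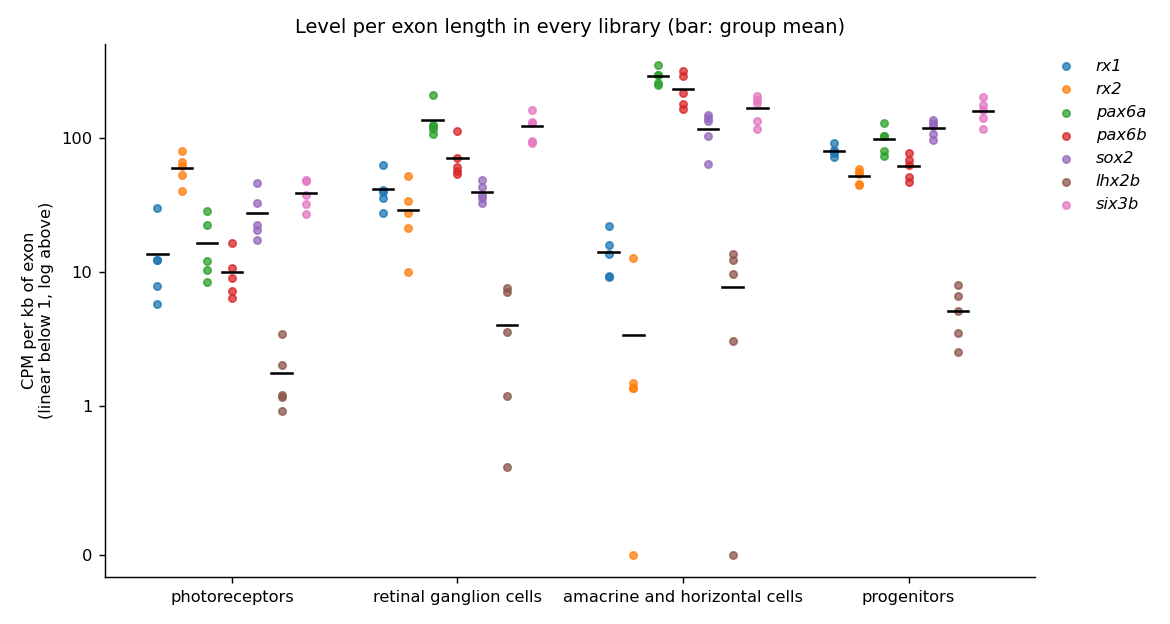
Level of each gene per kilobase of exon in the 20 libraries, in CPM per kb on an axis that is linear below 1 and logarithmic above, with points for libraries and black bars for group means. Pax6a had the highest mean in amacrine and horizontal cells (289 CPM per kb), six3b in progenitors (159 CPM per kb) and rx2 in photoreceptors (59.8 CPM per kb).

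Levels of different genes were compared per kilobase of exon. In progenitors the order of mean levels was six3b at 159, sox2 at 118, pax6a at 97.4, rx1 at 79.8, pax6b at 61.1, rx2 at 51.5 and lhx2b at 5.13 CPM per kb. In that population 6 of the 7 genes were above 89.5% or more of the 13838 genes tested in CPM per kb, and lhx2b was above 57.3%. In photoreceptors the gene with the highest mean was rx2 at 59.8 CPM per kb, followed by six3b at 38.4 and sox2 at 27.6 CPM per kb. Rx2 was above 90.5% of tested genes there, and above 48.5% in amacrine and horizontal cells, where its mean was 3.36 CPM per kb. In amacrine and horizontal cells the leading genes were pax6a at 289 and pax6b at 232 CPM per kb, above 97.7% and 97.2% of tested genes. In retinal ganglion cells pax6a at 135.5 and six3b at 121 CPM per kb led, ahead of pax6b at 70.8 CPM per kb.

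In 3 of the 4 comparisons with progenitors, none of the 7 genes was called in the opposite direction. The shares of all genes called there were also low, so a count of 0 of 7 does not set these genes apart. In photoreceptors 0 genes were higher than in progenitors, against 3.14% of all genes. In retinal ganglion cells 0 were higher than in progenitors, against 1.99%. In progenitors 0 were lower than the neuron mean, against 3.89%. Each of these counts was also 0 at an unadjusted p under 0.05 in edgeR, and 0 with DESeq2 and limma voom. The 3 genes that were higher in progenitors than the neuron mean were rx1 at 2.01 ± 0.26, sox2 at 1.23 ± 0.20 and six3b at 0.79 ± 0.17 on the log2 scale, with edgeR adjusted p of 3.10e-05, 0.0003 and 0.00526. The 2 Pax6 genes were at 0.18 ± 0.23 and 0.16 ± 0.21 in that comparison, where high and low neuron populations were averaged. The averaging also bears on sox2 and six3b. In amacrine and horizontal cells minus progenitors they were at -0.01 ± 0.25 and 0.06 ± 0.22. Six3b was not called in ganglion cells either, at -0.39 ± 0.22, so among single populations only photoreceptors were called below progenitors in six3b.

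Between neuron populations, photoreceptors were below retinal ganglion cells in 4 of 7 genes, against 1.27% of all genes. They were below amacrine and horizontal cells in 4 of 7 genes, against 3.94%, and above them in 1, against 4.77%. Retinal ganglion cells were below amacrine and horizontal cells in 2 genes, against 0.224% of all genes, and above them in 1, against 0.6%. In all, 25 of 49 differences were called, 22 of them among the 42 differences between pairs of populations. The share of all genes called in 1 direction of a comparison was at most 5.61%. The comparison with the neuron mean is built from the same groups as the pairs. The comparisons share groups, so these counts are not independent of each other. The labels give each library its own track number and do not say what the number stands for. For a check, the libraries were split at a gap in these numbers into a lower and a higher range. The lower range held 1 amacrine and horizontal library and 2 libraries of each other group. The labels do not name the ranges as batches. The 25 differences were called on all libraries together, so their sign within a range is no separate test. It was the same in both ranges for all 25, and the smallest within a range was 0.47 on the log2 scale, for sox2 between ganglion and amacrine and horizontal cells in the lower range (-0.47 against -1.88 in the higher range).

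Ratios within a library compare paralogs without any effect of library scaling. The log2 ratio of pax6a to pax6b per exon length was 0.80, 0.92, 0.51, -0.34 and 1.32 in photoreceptors and 0.88, 0.91, 0.82, 1.12 and 1.03 in retinal ganglion cells. It was 0.15, 0.04, 0.60, 0.27 and 0.72 in amacrine and horizontal cells and 0.70, 0.52, 0.75, 0.75 and 0.61 in progenitors. Pax6a was therefore the higher of the pair per length in 19 of 20 libraries, and ganglion cells lay above progenitors and above amacrine and horizontal cells with no overlap. The mean ratio of ganglion cells exceeded that of progenitors by 0.28 and that of amacrine and horizontal cells by 0.59 on the log2 scale. Each had an exact permutation p of 0.00794, 2-sided, the smallest that 5 against 5 libraries allow, and an adjusted p of 0.019 over 12 ratio comparisons. Amacrine and horizontal cells were 0.31 below progenitors with an exact permutation p of 0.0794. Exon lengths are sums over annotated exons, so the level of a ratio depends on which transcripts are in use, while a shift between populations does so only where that use differs.

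The log2 ratio of rx1 to rx2 per exon length was -0.43, -3.19, -2.42, -2.70 and -2.97 in photoreceptors and 0.81, 0.47, 0.65, 0.85 and 0.41 in progenitors. Rx2 thus exceeded rx1 per length in every photoreceptor library, whereas rx1 exceeded rx2 in every progenitor library. The ratio was 0.90, 0.00, -0.38, 1.84 and 0.94 in retinal ganglion cells and 10.41, 3.20, 2.74, 2.74 and 0.33 in amacrine and horizontal cells. The value of 10.41 comes from the library with 0 counts of rx2 and depends on the 0.5 counts added to each gene. The photoreceptor mean was below that of progenitors by -2.98, of ganglion cells by -3.0 and of amacrine and horizontal cells by -6.22, each with an exact permutation p of 0.00794 and an adjusted p of 0.019. The size of the last difference depends on the library with 0 counts of rx2, and it was -4.59 without that library. Ganglion cells and progenitors differed by 0.02 with an exact permutation p of 0.952. Amacrine and horizontal cells exceeded progenitors by 3.25 with an exact permutation p of 0.0476 and an adjusted p of 0.0816. Without their replicate 1, the library with 0 counts of rx2, that difference was 1.62 and did not pass, and without their replicate 5 it was 4.14 with an exact permutation p of 0.0159 and an adjusted p of 0.0317.

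**Figure D4:**
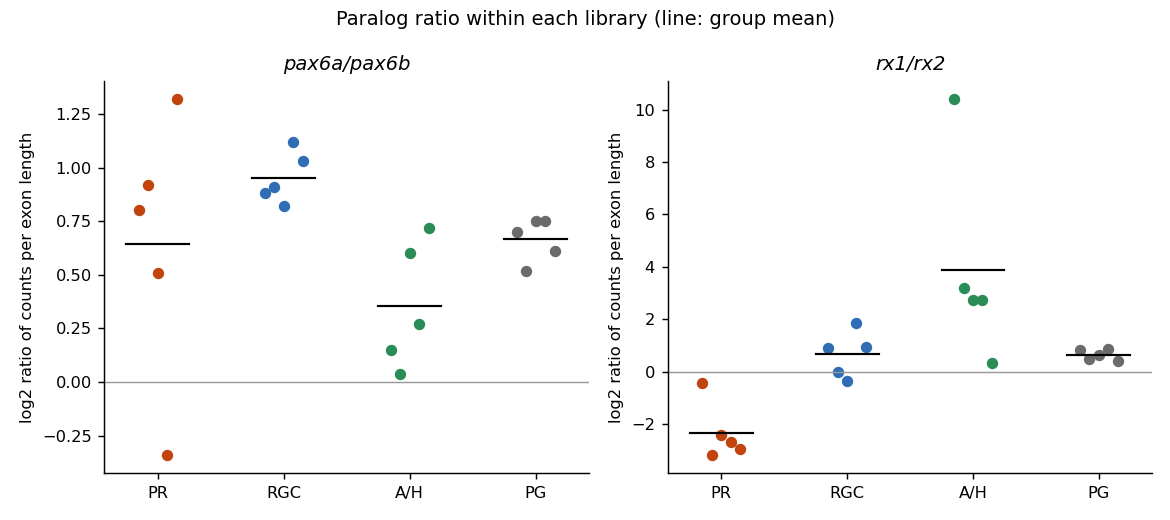
Log2 ratio of counts per exon length for pax6a over pax6b and for rx1 over rx2, with a point for each of the 20 libraries and a line for each group mean (PR, photoreceptors; RGC, retinal ganglion cells; A/H, amacrine and horizontal cells; PG, progenitors). The rx1 over rx2 ratio was below 0 in all 5 photoreceptor libraries and above 0 in all 5 progenitor libraries, while the pax6a over pax6b ratio was highest on average in retinal ganglion cells.

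Among the 7 genes themselves, log2 CPM across the 20 libraries was most alike between pax6a and pax6b (Pearson r = 0.97), then between pax6a and six3b (r = 0.88) and between pax6b and six3b (r = 0.87). The 2 Rx genes had r = 0.30 with each other, and rx2 had r = -0.71 with pax6b and -0.64 with pax6a. These correlations describe 20 libraries that fall into 4 populations, so they mainly restate the group means, and they carry no p. Of 6940 genes with a symbol and at least 10 CPM on average, the closest to rx1 was ZFP36L1 (r = 0.924), at 277 CPM in progenitors and 32.1 CPM in photoreceptors, followed by NCALD and FOXP4. The closest to rx2 were MYB (r = 0.942), PAK4 (r = 0.932) and TK1 (r = 0.931), the last being thymidine kinase 1, a gene of DNA synthesis, at 265 CPM in photoreceptors and 49.2 CPM in amacrine and horizontal cells. After its paralog, pax6a was closest to FSCN1 (r = 0.956), which encodes an actin bundling protein, and to ONECUT1 (r = 0.944), a transcription factor of horizontal cells, and pax6b was closest to MARCKS (r = 0.923) and BHLHE22 (r = 0.921). Sox2 had no gene above r = 0.835, which was TOX, followed by MDH1 and dnmt3ba. Six3b was closest to the corepressor gene ctbp1 (r = 0.906), then to BHLHE22 and pax6a, and lhx2b was closest to WASHC3 (r = 0.893), ARHGAP35 and APPBP2. Symbols in capitals are human-style names and can stand for 1 of several zebrafish paralogs.

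Other genes of the same network were read from a list of 26 eye field and retinal patterning genes, of which 23 were tested. Against the neuron mean 4 were higher in progenitors (nr2e1, mab21l2, foxd1 and tbx5a) and 2 were lower (six7 and lhx9). Of all genes 4.56% were higher and 3.89% lower. The median log2 difference was -0.21 against 0.025 over all genes. Tbx5a, a T-box gene of the dorsal retina, averaged 4.04 CPM in progenitors, with an SD of 3.76, and at most 0.921 CPM in a neuron population. Its log2 difference was 4.31 ± 1.19 with an edgeR adjusted p of 0.0271. Among single populations only amacrine and horizontal cells were called below progenitors in tbx5a, at -8.22 ± 2.2 with a mean of 0.00863 CPM. Photoreceptors and ganglion cells were not, with edgeR adjusted p of 0.547 and 0.74. Mab21l2, a gene needed for eye growth, passed by averaging over unlike groups, as its mean was 0 CPM in photoreceptors, 4.39 CPM in ganglion cells, 29.2 CPM in amacrine and horizontal cells and 13.9 CPM in progenitors. Six7, a factor of the cone program in zebrafish, averaged 731 CPM in photoreceptors and 3.05 CPM in progenitors. It is also among the photoreceptor markers summed above. The part of photoreceptor transcripts in its level in the other populations was not tested. The number of genes of the eye field list higher in progenitors ran from 2 to 4 when single libraries were left out, and it was 2 without progenitor replicate 2, 4 or 5.

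In amacrine and horizontal cells against progenitors, 10 of the 23 genes were higher and 2 were lower, against 5.61% and 5.51% of all genes. The median log2 difference was 1.07 against 0 over all genes. The 10 were six3a, six6b, six7, lhx9, pax10, mab21l1, meis1b, meis2b, hmx1 and hmx4, and the 2 were nr2e1 and tbx5a. Lhx9, a LIM homeobox gene, averaged 122 ± 80.3 CPM there and 4.94 ± 1.49 CPM in progenitors (SD, n = 5 each), with an edgeR adjusted p of 7e-06. In photoreceptors 3 were higher than in progenitors and 3 were lower, against 3.14% and 2.05% of all genes, with a median of -0.98. The counts became 1 to 3 and 2 to 4 when single libraries were left out. In retinal ganglion cells 2 of the listed genes were higher and 0 were lower with edgeR, against 1.99% and 0.889% of all genes. The median was 0.31. The count of 0 lower was 1 at an unadjusted p under 0.05, 1 with DESeq2 and 1 with limma voom. The 2 genes higher in ganglion cells were 4 without amacrine and horizontal replicate 1, and 1 to 3 without any other single library.

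Of the closest paralogs of the 7 genes outside the set, six3a, the paralog of six3b, averaged 358 ± 161 CPM in amacrine and horizontal cells, 344 ± 156 CPM in retinal ganglion cells, 143 ± 36.7 CPM in progenitors and 72.2 ± 34.0 CPM in photoreceptors (SD, n = 5 each). Unlike six3b it was called higher than in progenitors in 2 populations. The log2 difference was 1.33 ± 0.34 in amacrine and horizontal cells, with an edgeR adjusted p of 0.0165. In retinal ganglion cells it was 1.27 ± 0.34, with an edgeR adjusted p of 0.0476, close to the threshold. The listed genes called higher in ganglion cells were six3a and six7, the latter with an edgeR adjusted p of 8.27e-05. Their count fell to 1 without any 1 of several single libraries, among them ganglion cell replicates 1 and 3. Whether the paralogs differ in this was not tested. Rx3 averaged 5.68 to 20.9 CPM in the 4 populations and was called in none of the comparisons with progenitors. Lhx2a was at 0 or near it, with group means of at most 0.15 CPM, and was not tested. Pax10, a Pax6-related gene, averaged 107 ± 35.0 CPM in amacrine and horizontal cells and at most 4.23 CPM elsewhere.

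**Figure D5:**
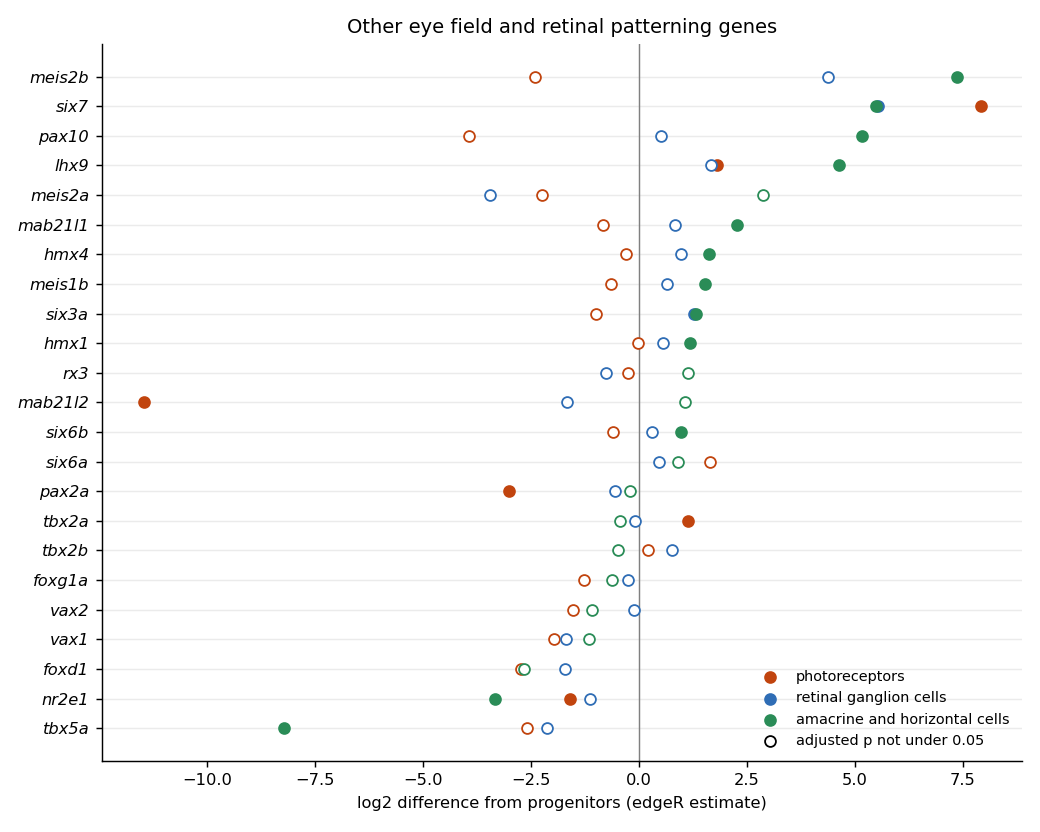
Log2 difference from progenitors (edgeR estimate) of the 23 tested eye field and patterning genes other than the 7, ordered by the amacrine and horizontal value, filled where the adjusted p was under 0.05. In amacrine and horizontal cells 10 genes were called higher and 2 lower, against 5.61% and 5.51% of all genes. The far left point of mab21l2 belongs to photoreceptors, where all libraries had 0 counts.

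For sox2, 17 other Sox genes were listed and 11 were tested. With edgeR 0 were higher in progenitors than in the neuron mean, with 4 at an unadjusted p under 0.05, 1 with DESeq2 and 2 with limma voom. With edgeR 1 was lower, and the median log2 difference was 0.44. Of all genes 4.56% were higher and 3.89% lower. The lower gene was sox3, another SoxB1 gene, at 514.5 ± 144 CPM in progenitors, 713 ± 380 CPM in photoreceptors, 749 ± 146 CPM in ganglion cells and 1699 ± 444 CPM in the amacrine and horizontal population (SD, n = 5 each). Its log2 difference was -0.91 ± 0.24 with an edgeR adjusted p of 0.0224, and the call was lost without progenitor replicate 3 or 5. Sox11a, a SoxC gene of newborn neurons, averaged 1053 CPM in ganglion cells, 976 CPM in amacrine and horizontal cells, 581 CPM in progenitors and 246 CPM in photoreceptors. Of 17 cell cycle genes tested, 7 were higher in progenitors than in the neuron mean, against 4.56% of all genes. The number lower was 0 (0 also unadjusted, and with DESeq2 and limma voom), against 3.89%, and the median log2 difference was 0.56. Of the genes that passed, the 4 with the widest differences were the replication licensing genes mcm3, mcm2, mcm5 and mcm6, at 1.43 ± 0.21, 1.28 ± 0.24, 1.23 ± 0.20 and 1.23 ± 0.25 on the log2 scale. Without amacrine and horizontal replicate 1 the count of cell cycle genes was 11. The neuron mean averaged unlike populations. Of the 17 genes, 12 were lower than in progenitors in amacrine and horizontal cells, against 5.51% of all genes, and 4 in ganglion cells, against 0.889%. In photoreceptors 0 were lower (6 at an unadjusted p under 0.05 in edgeR), against 2.05%, and 1 was higher, against 3.14%. The higher gene was ccnd1, at 2751 CPM in photoreceptors and 1538 CPM in progenitors, with an edgeR adjusted p of 0.00341. Whether the neuron populations held dividing cells was not tested.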

How the data were processed

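The deposited file holds unnormalized read counts, by gene, for 20 libraries, with exon coordinates and summed exon lengths. Polyadenylated RNA was amplified by SmartSeq-2 and sequenced on a NextSeq500, per the labels' protocols. Alignment used GSNAP and counting featureCounts 1.6.3, per the submitters' processing notes. Those notes name both GRCz11 and GRCz10, and the deposited table is on GRCz11 with Ensembl 95. Strand was ignored and reads of several places or genes were not counted, per the file headers, so reads shared by paralogs such as pax6a and pax6b are lost and antisense reads cannot be told apart. Depth was 21176600 to 30849559 counts per library.

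Counts were fitted in edgeR 4.0.16 (R 4.3.3, limma 3.58.1) with filterByExpr, TMM factors and all 20 libraries in 4 groups, without covariates. P-values were 2-sided and Benjamini-Hochberg adjusted over 13838 genes. The fit was tested on simulated counts with 200 changed genes for progenitors against the neuron mean, where it called 54% to 92% of changes of 2 or 3 on the log2 scale, per direction and size, and 0.076% of unchanged genes. In that simulation no gene differed between neuron populations, and no pair of populations was compared. Its rates therefore do not describe the calls between pairs. Paralog ratios used 0.5 added counts and exact permutation tests (scipy 1.17.1). Alternatives were DESeq2 1.42.0, limma voom, RLE factors, no filter, only the groups compared, a replicate block, the track range and leaving out each library.

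The members and lists were chosen with earlier results of these data known. Named genes were the 7 members, their closest paralogs, of each list up to 4 called genes with the widest difference between progenitors and the neuron mean (the 2 most abundant where fewer than 2 passed), and for each member the 3 genes most correlated with it. Other genes of a list are named only where they make up a count or gave a reporter of the sort (crx and ptf1a). Fabp7a and gnat2 were chosen after their values were seen. Symbols were looked up by Ensembl identifier in a table where both Pax6 genes are PAX6, and members were told apart by identifier, checked by chromosome against RefSeq names (assembly GRCz12tu). 1 gene of the eye field and marker lists is not reported here and was left out of their counts.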

Additional observations from a re-analysis of the deposited data

Results flagged for a closer look

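In 28 sets of 5 libraries, each 1 gene in 1 population, 4 held a library whose gap to the nearest of the others exceeded Dixon's 95% critical value of 0.71 times the range. Chance gives about 1 in 20. In photoreceptors, rx1 was 142.6 CPM in replicate 1 and 27.5 to 58.5 CPM in the other libraries. In amacrine and horizontal cells, rx2 was 18.78 CPM in replicate 5 and 0 to 2.18 CPM in the others. In retinal ganglion cells, replicate 1 stood apart in both Pax6 genes. There pax6a was 726.2 CPM against 372 to 432.5 CPM, and pax6b was 797.8 CPM against 379 to 496 CPM. The cause of these 4 values was not tested.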

How the results depend on the processing

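Of 1316 alternative values for the differences of the 7 genes, 1269 kept their direction and their side of the threshold, 9 lost the call, 17 gained it and 21 changed sign, the last only in differences that were not called. The photoreceptor minus amacrine and horizontal difference of rx1 (-0.04) was 0.04 with RLE factors, 0.00 without the filter and 0.04 with DESeq2, where RLE factors and DESeq2 moved the median of all genes to 0.10. That of sox2 for amacrine and horizontal cells minus progenitors was 0.04 with the track range as a covariate. With limma voom, lhx2b was -1.16 for amacrine and horizontal cells minus progenitors and 0.29 for ganglion minus amacrine and horizontal cells, where limma voom also moved the median of all genes to -0.39 and 0.63 on the log2 scale. Limma voom also gave -5.83 and 6.04 for rx2 in the comparisons of amacrine and horizontal cells minus progenitors and photoreceptors minus amacrine and horizontal cells. Leaving out single libraries gave -0.52 to 0.18 for rx1 in photoreceptors minus amacrine and horizontal cells, -0.03 to 0.31 for pax6b in ganglion cells minus progenitors, and -0.14 to 0.14 for sox2 and -0.07 to 0.16 for six3b in amacrine and horizontal cells minus progenitors. It gave -0.20 to 0.22 for the pax6a to pax6b ratio in photoreceptors minus progenitors and -0.27 to 0.28 for the rx1 to rx2 ratio in ganglion cells minus progenitors. The cause of these shifts was not tested.

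The count of the 7 genes lower in ganglion cells than progenitors (1) was 2 with limma voom and 2 with only the groups compared. Over all genes that count was 123 of 13838 in the main fit. It was 306 of 13838 with limma voom and 348 of 11921 with only the groups compared. With only the groups compared, the count lower in amacrine and horizontal cells than progenitors was 1 and the count higher in photoreceptors than amacrine and horizontal cells was 0. Over all genes these were 284 of 10952 and 289 of 11488, against 763 and 660 of 13838 in the main fit. The count higher in ganglion than amacrine and horizontal cells (1) was 2 with DESeq2 and with limma voom, and 0 to 2 without single libraries. Over all genes it was 83 in the main fit, 484 with DESeq2, 336 with limma voom and 49 to 193 without single libraries. In the eye field list, against progenitors, DESeq2 gave 4 genes lower in progenitors than the neuron mean, limma voom gave 5 lower in photoreceptors, and the count lower in amacrine and horizontal cells (2) was 4 with limma voom and 1 with only the groups compared. Over all genes DESeq2 gave 1039 lower in progenitors (538 in the main fit), and limma voom gave 500 lower in photoreceptors (284 in the main fit). Lower in amacrine and horizontal cells were 1473 of all genes with limma voom. For ganglion cells the count higher was 4 with DESeq2, limma voom, only the groups compared and the replicate block, and the count lower was 1, 1 and 3 with the first 3 of these. Over all genes the count higher was 606, 449, 343 and 277 in the same order, against 275 in the main fit. The count lower was 325, 306 and 348, against 123 in the main fit. Without single libraries the list counts were 2 to 4 (higher than the neuron mean), 1 to 3 and 2 to 4 (higher and lower in photoreceptors) and 1 to 4 and 0 to 1 (higher and lower in ganglion cells). Sox genes higher in progenitors were 3 without the filter, 1 with DESeq2, 2 with limma voom and 1 with the track range, and 0 to 1 without single libraries, as were those lower. Cell cycle genes higher were 11 with limma voom and 6 to 11 without single libraries. Over all genes the count higher in progenitors than the neuron mean was 631 in the main fit and 1854 of 27508 without the filter. It was 774 with DESeq2, 977 with limma voom, 612 with the track range and 516 to 929 without single libraries.

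The labels do not say that a replicate number marks a shared pool, and deviations of same-numbered libraries correlated at -0.06 to 0.15 in 30 pairs, with 2 over 0.1, so the numbers were not taken to pair the libraries. That 13 of 20 libraries correlated best with their own number is a hint of pairing, and the share that chance gives was not worked out. The column names are a further hint, since their library numbers run in consecutive blocks by replicate number. Neither states a shared pool, and the main tests treat the libraries as unpaired. The replicate block brought the pax6a difference of ganglion minus amacrine and horizontal cells to -1.13 with an edgeR adjusted p of 0.0319, and moved rx2 to -4.63 for amacrine and horizontal cells minus progenitors and 4.86 for photoreceptors minus amacrine and horizontal cells. With 5 pairs the exact paired test of a ratio cannot go below 0.0625, so no ratio difference could pass if the libraries are pairs. The widest errors were those of lhx2b, with SE of 0.76 to 1.0 on the log2 scale, and rx2, with 0.57 to 0.86. Rx2 had an SE of 0.75 between photoreceptors and progenitors, where its means were 89.1 and 76.7 CPM. A limit from depth or from the 500 cells per library was not tested.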
